A study of Mus musculus with 1279 samples.

Results

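Integrins are cell surface receptors for the extracellular matrix, each built from 1 alpha and 1 beta subunit. The alpha subunit largely sets which ligand is bound: alpha1, alpha10 and alpha11 pair with beta1 as collagen receptors, alpha7 pairs with beta1 as a laminin receptor, alpha5 and alpha8 pair with beta1 and read the RGD motif of fibronectin and nephronectin, and alpha9 with beta1 binds tenascin, VCAM1 and related ligands. The beta3 and beta5 subunits pair with alphaV. Fibroblasts make much of the cardiac matrix, whereas pericytes and smooth muscle cells, together called mural cells, sit on the basement membrane of vessels. The 10 subunit genes described here, 7 alpha (Itga1, Itga5, Itga7, Itga8, Itga9, Itga10, Itga11) and 3 beta (Itgb1, Itgb3, Itgb5), were chosen by name, with earlier results of these data known, and are 10 of the 46517 mouse genes in the count table.

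The data were Smart-seq2 counts from 1279 single mesenchymal cells of the hearts of adult male mice aged 10 to 20 weeks. Cells came from 4 strains, all of them backcrossed to the C57BL6 background: C57BL6 itself (45.4% of the cells, sorted with antibodies to PDGFRα and PDGFRβ), the reporter PdgfrbGFP (28.5%, GFP under Pdgfrb), Cspg4dsRED (12.7%, DsRed under Cspg4, the NG2 proteoglycan gene of pericytes) and Acta2GFP (13.4%, GFP under the smooth muscle actin gene). A reporter line selects the cells that express its promoter, and the label gave no mouse identity, so 1 strain was taken as 1 replicate. Each reporter strain was sorted into 1 plate and C57BL6 into 3, with elastase added only for Acta2GFP, so strain, sort, dissociation and plate cannot be told apart, and the spread between strains holds all of them. The labels also gave 8 clusters, made by the study from these same counts, member genes included, so each comparison between clusters sets against each other groups that the counts helped to form.

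Clusters 1 to 5 (926 cells) were taken as fibroblasts and 6 to 8 (353 cells) as mural, with 6 and 7 called smooth muscle and 8 pericytes here from the markers that follow. The summed level of 5 fibroblast markers (Pdgfra, Col1a1, Dcn, Lum, Tcf21) had a mean over strains of at least 10089 counts per 1000000 gene counts (CPM) in each of clusters 1 to 5, and at most 1366 CPM in clusters 7 and 8, with 4595 CPM in cluster 6. Smooth muscle markers (Acta2, Myh11, Tagln, Cnn1) had 11450, 12725 and 1510 CPM in clusters 6, 7 and 8. They reached 4033 CPM at most in a sum of cluster 8 and were at 10670 CPM or more in cluster 7. Pericyte markers (Kcnj8, Abcc9, Rgs5, Vtn) had 303, 4773 and 17298 CPM in clusters 6, 7 and 8. Their ranges overlapped, with 8974 CPM in cluster 7 of PdgfrbGFP and 6942 CPM in cluster 8 of Acta2GFP. The 5 general mural markers (Rgs5, Notch3, Mcam, Cspg4, Des) were at 7523 and 9440 CPM in clusters 7 and 8 but at 781, 2446 and 1852 CPM in cluster 6 of C57BL6, Cspg4dsRED and Acta2GFP, where fibroblast markers were at 9822, 1797 and 2167 CPM. The mural markers of cluster 6 were thus below those of clusters 7 and 8 in each sum, and below its own fibroblast markers in both sums of 3 cells but not in the 33 Cspg4dsRED cells. The 3 C57BL6 cells of cluster 6 stood apart, with fibroblast markers at 7771 to 12010 CPM per cell beside smooth muscle markers at 9427 to 13019 CPM, while the 3 Acta2GFP cells of that cluster had fibroblast markers at 1513 to 3233 CPM. Cells held 46268 to 1302397 counts in genes (median 274504), no 2 cells had identical counts, and counts were summed per strain and cluster where there were 3 or more cells, giving 27 sums. This left no value for cluster 3 in Cspg4dsRED, cluster 5 in Cspg4dsRED and Acta2GFP, cluster 6 in PdgfrbGFP and cluster 7 in C57BL6.

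Itga5 and Itga8 shared a peak in cluster 6, and Itga1 was highest in cluster 8, so the bases upstream of these 3 genes are shown. Each window is the 250 bases before the RefSeq transcription start in GRCm38.p6, on the coding strand, 5′ to 3′, and lies at chr2:12301945-12302194 (minus strand) for Itga8, chr15:103366792-103367041 (minus) for Itga5 and chr13:115101965-115102214 (minus) for Itga1. Capitals mark the GC box GGGCGG or its complement CCGCCC, the site of the Sp family.
Itga8: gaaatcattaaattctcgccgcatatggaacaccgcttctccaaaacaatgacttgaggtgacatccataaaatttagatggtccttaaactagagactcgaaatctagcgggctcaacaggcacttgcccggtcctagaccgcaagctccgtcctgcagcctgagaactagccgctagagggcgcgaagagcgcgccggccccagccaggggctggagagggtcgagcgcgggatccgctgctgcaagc
Itga5: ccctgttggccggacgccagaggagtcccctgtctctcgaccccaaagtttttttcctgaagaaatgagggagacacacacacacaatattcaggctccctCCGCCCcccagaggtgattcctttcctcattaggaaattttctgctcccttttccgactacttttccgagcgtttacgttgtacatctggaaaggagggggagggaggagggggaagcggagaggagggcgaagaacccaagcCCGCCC
Itga1: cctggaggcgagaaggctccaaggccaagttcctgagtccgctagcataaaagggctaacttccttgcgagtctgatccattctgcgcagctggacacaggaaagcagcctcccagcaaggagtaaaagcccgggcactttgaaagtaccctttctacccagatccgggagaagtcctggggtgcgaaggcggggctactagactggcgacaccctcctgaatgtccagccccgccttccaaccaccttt
The Itga5 window held 2 GC boxes, the nearer one ending just before the start site, and those of Itga8 and Itga1 held none. The Itga8 window held 18 CpG dinucleotides, against 11 and 10 in those of Itga5 and Itga1. Of the 8 members with a window (Itga7 and Itgb3 were not in the sequence table), 3 held a GC box (Itga5, Itgb1, Itgb5), against 32.7% of 32851 mouse windows of this length. CATTCC, the TEAD motif, was in 2 of the 8 (Itga10, Itgb1) against 12.6%, TGANTCA, the AP-1 motif, in 0 against 6.75%, and the CArG box of serum response factor in 0 against 1.47%. Among the 8, the Itga9 window (chr9:118711442-118711691, plus strand) lay inside the gene, whose annotated start is 118606690. Both strands were searched, no 2 of these matches overlapped, and a letter match says nothing of binding.

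Levels in each cluster and strain are plotted first.

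**Figure D1:**
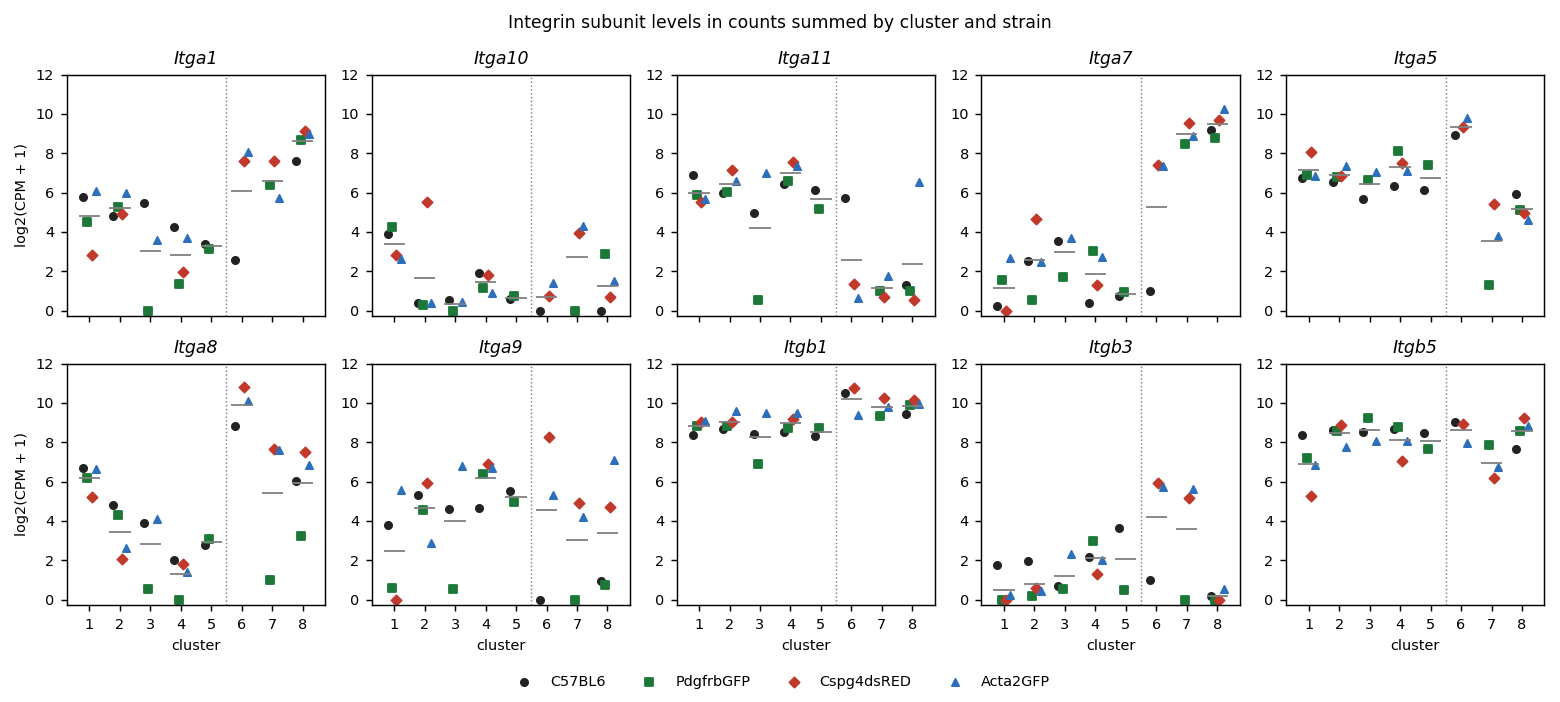
Level of each subunit gene by cluster, as log2(CPM + 1) of counts summed over the cells of 1 strain (points, colour and shape by strain), with the mean over strains (grey bar). Clusters 1 to 5, left of the dotted line, are fibroblasts and clusters 6 to 8 mural cells. Itga7 lies between 351 and 1234 CPM in clusters 7 and 8 and at most 24.6 CPM in any fibroblast sum, Itga8 and Itga5 are highest in cluster 6, and Itgb1 is at 117.02 CPM or more in all 27 sums.

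In the comparison of clusters 1 to 5 with clusters 6 to 8, which asked which genes separate both cell classes, Itga7, Itga1 and Itga8 were higher in mural cells. Among the 15117 genes tested, 5.93% were called at an adjusted p under 0.05 in either direction with 3.47% as higher and 2.45% as lower in fibroblasts, whereas 3 of the 10 members were called, each lower in fibroblasts. The median log2 fold change of the 10 members was -0.55 and that of all genes -0.02. DESeq2 called 5 members, adding Itga11 and Itgb1, where it called 13.2% of genes, and with the strain as a paired block 2 members and 4.81% of genes were called.

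Itga7 (ENSMUSG00000025348, chr10:128933818-128958282, GRCm38), the laminin-binding alpha chain of striated and smooth muscle, had the largest difference. Its fibroblast sums were at 3.04, 2.65, 10.3 and 5.86 CPM in C57BL6, PdgfrbGFP, Cspg4dsRED and Acta2GFP, and its mural sums at 503, 429, 584 and 695 CPM in the same order. The ranges did not overlap, and fibroblasts were lower in 4 of 4 strains. The log2 fold change (FC), fibroblasts over mural cells, was -6.72 (SE 0.50, adjusted p = 0.00011 by edgeR), and its adjusted p stayed at or below 0.0046 under the alternatives tried.
Cardiac muscle also makes Itga7. The study passed its suspensions through fine strainers, sorted for PDGFR staining or a reporter and removed cells with a plainly foreign transcriptome. The summed level of 9 cardiac muscle markers (Myh6, Tnnt2, Tnni3, Actn2, Ryr2, Myl2, Myl7, Nppa, Pln) moved with Itga7 in part. That sum was 2.78 to 239 CPM over the sums of clusters 1 to 5, a mean of 1481 CPM in cluster 7 and 205 CPM in cluster 8, with none of the 9 at 0 in any cluster. Itga7 had means of 525 CPM in cluster 7 and 768 CPM in cluster 8, with overlapping ranges. The part of cardiac muscle transcripts in the result was not tested.

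Itga1 (ENSMUSG00000042284, chr13:114953096-115101964), the alpha chain of a receptor for collagen IV, was also lower in fibroblasts. It had 22.7, 13.6, 19.6 and 40.4 CPM in the fibroblast sums of C57BL6, PdgfrbGFP, Cspg4dsRED and Acta2GFP and 166.8, 381, 265 and 217 CPM in the mural sums. No fibroblast sum reached a mural one, and the log2 FC was -3.47 (SE 0.43, adjusted p = 0.0014 by edgeR). All 37 mural cells of C57BL6 came from 1 of its 3 plates. Within that plate, where 292 fibroblasts were, Itga1 stood at 18.8 CPM in fibroblasts against 166.8 CPM in mural cells and Itga7 at 3.28 against 503 CPM.

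Itga8 (ENSMUSG00000026768, chr2:12106632-12301922), the alpha chain of the nephronectin receptor, was lower in fibroblasts in 3 of 4 strains and its ranges overlapped. Fibroblast sums were at 14.8, 14.6, 7.01 and 25.6 CPM and mural sums at 119.4, 7.63, 674 and 249 CPM in the order above. The PdgfrbGFP mural sum, with 0 cells of cluster 6, was the one below its fibroblasts. The log2 FC was -4.05 (SE 1.01, adjusted p = 0.043 by edgeR). This call was lost with the strain as a paired block (adjusted p = 0.27), without the 3 C57BL6 cells of cluster 6, a check added after seeing the data (adjusted p = 0.053), and without C57BL6 (0.148), Cspg4dsRED (0.178) or Acta2GFP (0.133).
Itga8 shares 372 exonic bases with the antisense gene E030013I19Rik, and the strand setting of the counting is not given in the sources used here, so reads of the pair could not be told apart there. In cluster 6, E030013I19Rik had 0 CPM in C57BL6, where Itga8 had 454 CPM and where a count of 0 allows up to 2.94 CPM, taking 3 counts as the limit. It had 718 CPM in Cspg4dsRED, beside 1762 CPM of Itga8, and 347 CPM in Acta2GFP, beside 1082 CPM. The antisense gene was thus high in both of these strains, and its part in their Itga8 counts was not tested.

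Itga11 (ENSMUSG00000032243, chr9:62677826-62783982), the fibrillar collagen receptor chain of mesenchymal cells, ran the other way without passing the test. Fibroblast sums were at 68.3, 58.9, 143.4 and 108.96 CPM and mural sums at 7.30, 1.02, 0.88 and 31.02 CPM in the same strain order. The groups did not overlap and all 4 strains had more in fibroblasts, with a log2 FC of 3.24 (SE 1.03, adjusted p = 0.11 by edgeR). The high Acta2GFP mural value rested on cluster 8, where 1 cell gave 63.3% of the counts. Without that strain the log2 FC was 4.91 (adjusted p = 0.044 by edgeR). Over the other edgeR alternatives the adjusted p of Itga11 reached 0.31.

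Itgb1 (ENSMUSG00000025809, chr8:128685654-128733200), the beta chain shared by all 7 alpha members, had 355, 424, 528 and 695 CPM in the 4 fibroblast sums and 804, 919.6, 1345 and 891 CPM in the mural ones. Every mural sum lay above every fibroblast sum, and the log2 FC was -1.01 (SE 0.28, adjusted p = 0.063 by edgeR). With DESeq2's size factors in edgeR the adjusted p was 0.049, and with DESeq2 it was 0.0047. Over the other edgeR alternatives the adjusted p of Itgb1 reached 0.205.
For Itgb5, Itga5, Itga9, Itga10 and Itgb3, fibroblast and mural ranges overlapped, and edgeR adjusted p was between 0.51 and 0.997. Itgb5 (ENSMUSG00000022817, chr16:33829665-33949338), a partner of alphaV, averaged 286 CPM in fibroblast and 281 CPM in mural sums, with a log2 FC of 0.0070 (SE 0.30) whose sign turned with DESeq2's size factors (-0.07). Itgb3 (ENSMUSG00000020689, chr11:104608000-104670476) was at 35.5 and 32.8 CPM in the mural sums of Cspg4dsRED and Acta2GFP and at 0.23 and 0 CPM (a count of 0 that allows up to 0.146 CPM) in those of C57BL6 and PdgfrbGFP, so its difference split by strain. Itga9 (ENSMUSG00000039115, chr9:118606690-118901003) split the same way, at 114.7 and 57.8 CPM in the mural sums of the first pair and 0.81 and 0.58 CPM in those of the second.

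**Figure D2:**
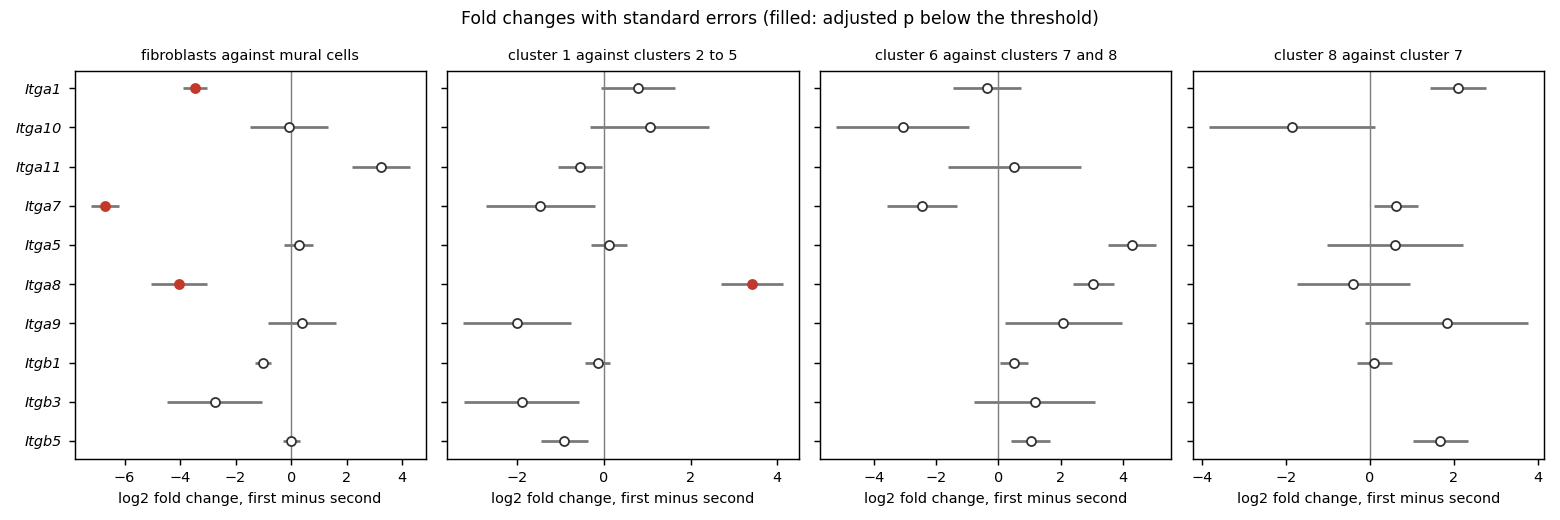
Log2 fold change of each member (point) with a standard error derived from the F statistic (bar) in 4 comparisons of summed counts, first group minus second, from edgeR. Filled points have an adjusted p below 0.05: Itga1, Itga7 and Itga8 in fibroblasts against mural cells and Itga8 in cluster 1 against clusters 2 to 5. Members without a point did not pass the filter on low counts.

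In cluster 6, Itga5 and Itga8 had their highest sums and Itga7 its lowest among mural clusters, though no member passed the test against clusters 7 and 8. The study named Itga8 among the genes enriched in a small group of heart smooth muscle cells with Sost and Cbr2, which it held likely to be of the large outlet vessels. That these are cluster 6 is an assumption here: Sost was at 527 and 261 CPM and Cbr2 at 426 and 366 CPM in the Cspg4dsRED and Acta2GFP cells of cluster 6, but both were at 0 CPM in its C57BL6 cells, and in clusters 7 and 8 Sost reached 1.84 CPM and Cbr2 52.8 CPM. Itga8 is therefore no independent result in cluster 6. For Itga5 (ENSMUSG00000000555, chr15:103344286-103366763), the fibronectin receptor chain, cluster 6 had 487, 645 and 878 CPM in C57BL6, Cspg4dsRED and Acta2GFP. Clusters 7 and 8 together had 58.6, 38.97 and 16.7 CPM in those strains. The log2 FC was 4.28 (SE 0.76, adjusted p = 0.12 by edgeR), and with strain as a paired block the adjusted p was 0.00019.
Itga8 had 454, 1762 and 1082 CPM in cluster 6 against 74.6, 196 and 166.7 CPM in clusters 7 and 8. Its log2 FC was 3.05 (SE 0.67, adjusted p = 0.21 by edgeR, 0.00042 with the block). Itga7 was lower in all 3 strains, at 0.98, 170.2 and 163.6 CPM in cluster 6 against 570.5, 766 and 748 CPM, a log2 FC of -2.45 (SE 1.12, adjusted p = 0.85 by edgeR, 0.015 with the block).
In none of these 3 genes did the ranges of cluster 6 and of clusters 7 and 8 overlap. Fibroblast markers moved with them, at 1797 to 9822 CPM over the sums of cluster 6, all above the highest sum of cluster 7 (646 CPM) and partly within the 513 to 2645 CPM of cluster 8. Endothelial markers (7 genes) were also higher, at 36.2 to 275 CPM against 6.87 to 17.98 CPM in cluster 7 and 4.34 to 85.7 CPM in cluster 8. Cardiac muscle markers were at 5.88 to 682 CPM in cluster 6, below the 1244 to 1904 CPM of cluster 7 and on both sides of the 91.7 to 287 CPM of cluster 8. The part of these transcripts in the 3 differences was not tested. Each cluster 6 sum of Itga5 was above every fibroblast sum, of which the highest was 279 CPM in cluster 4 of PdgfrbGFP. The C57BL6 value of Itga5 came from 1 of 3 cells, the others having no count.

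By edgeR, 0 of the 10 members and 4 of 12117 genes (0.033%) were called in this comparison, while 3 members and 5.74% of genes had an unadjusted p under 0.05, the block called 3 (with 0.883% of genes), and DESeq2 called 1 (with 3.12%). Without C57BL6, whose cluster 6 cells also held fibroblast markers and whose second group was nearly all cluster 8, Itga5 (adjusted p = 0.048) and Itga8 (adjusted p = 0.047) were called by edgeR, with 0.144% of 13859 genes. The median log2 FC of all genes was -0.32 and shifted by 0.14 with DESeq2's size factors, so a difference is read against that. Itgb5 was higher in cluster 6 in 3 of 3 strains, at 518, 480.5 and 248 CPM against 192, 214 and 232 CPM, a log2 FC of 1.03 (SE 0.62, adjusted p = 0.99 by edgeR).
Itga9 reached its highest sum in the Cspg4dsRED cells of cluster 6, 311 CPM, against 0 CPM in C57BL6 (a limit of 2.94 CPM) and 39.4 CPM in Acta2GFP, where 1 cell gave 94.5% of the counts. Itgb3 was at 59.1 and 51.3 CPM in the Cspg4dsRED and Acta2GFP cells of cluster 6 and 34.6 and 48.005 CPM in cluster 7. It was at 0.98 CPM in the C57BL6 cells of cluster 6, at 0 CPM in the PdgfrbGFP cells of cluster 7 and at most 0.45 CPM in any sum of cluster 8. The Acta2GFP value in cluster 6 came from 1 cell and that in cluster 7 rested on 1 cell for 89.02% of its counts. Platelets carry Itgb3 too. The study's sort left out cells that stained for CD31, which platelets also carry, and the transcriptome filter named above applied here too. The 5 platelet markers (Pf4, Ppbp, Gp1bb, Itga2b, Treml1) summed to a mean of 61.4 CPM in cluster 7, 14.7 CPM in cluster 6 (Ppbp and Treml1 at 0) and 19.9 CPM in cluster 8. Their part in the Itgb3 values was not tested.

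In the comparison of pericytes (cluster 8) with smooth muscle cells (cluster 7), no member passed the test. Itga1 was at 413, 562 and 498.6 CPM in cluster 8 of PdgfrbGFP, Cspg4dsRED and Acta2GFP against 81.9, 196 and 51.7 CPM in cluster 7. The ranges did not overlap over these 3 strains, but C57BL6, which had no cluster 7 sum, had 194.5 CPM in cluster 8, within the range of cluster 7. The log2 FC was 2.10 (SE 0.66, adjusted p = 0.34 by edgeR). Itgb5 followed the same direction, at 381, 598 and 455 CPM against 227, 70.95 and 106.6 CPM (log2 FC 1.68, SE 0.66, adjusted p = 0.56 by edgeR), with 197.9 CPM in cluster 8 of C57BL6, below the highest sum of cluster 7. In this comparison edgeR called 0 members and 23 of 11867 genes (0.194%, with 0.0843% higher and 0.11% lower in cluster 8), with 2 members and 6.88% of genes at an unadjusted p under 0.05 and 0 members called by DESeq2, which called 3.51% of genes. All genes had a median log2 FC of 0.18, which DESeq2's size factors moved by -0.14, and Itgb1, at 0.11, turned to -0.13 with them. Itga11 and Itgb3 did not pass the filter on low counts.
Fibroblast markers were higher in cluster 8 than in cluster 7 in 3 of 3 strains, at 1266, 513 and 2645 CPM against 646, 122.6 and 637 CPM in PdgfrbGFP, Cspg4dsRED and Acta2GFP, and their part in these values was not tested.
Itga7 did not separate cluster 8 (438 to 1234 CPM over 4 strains) from cluster 7 (351 to 748 CPM over 3), since the ranges overlapped, although 3 of 3 strains had more in cluster 8.

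Among fibroblasts, cluster 1, whose cells the study located by staining at the valves and their hinges, had more Itga8 than the others. Its sums had 103.1, 71.5, 35.8 and 97.8 CPM in C57BL6, PdgfrbGFP, Cspg4dsRED and Acta2GFP, and clusters 2 to 5 together had 11.5, 7.52, 4.62 and 5.33 CPM. Each cluster 1 sum lay above all 4 of the others. The C57BL6 value of cluster 1 rested on 1 plate, with 120.1 CPM in 16 cells. On another plate its 3 cells had 2.34 CPM, where clusters 2, 3, 4 and 5 had 21.9, 0, 0.054 and 8.54 CPM. The log2 FC was 3.42 (SE 0.71, adjusted p = 0.043 by edgeR), and 1 of 10 members was called where 1.33% of 13201 genes were, 0.561% as higher and 0.773% as lower. The call was lost with the paired block (adjusted p = 0.13, with 0 members and 0.742% of genes called), with cells thinned to 50000 counts (0.077), without the filter (0.089), and without C57BL6, PdgfrbGFP or Acta2GFP (0.19 to 0.26), with log2 FCs of 2.64 to 3.55.
Some markers of other cell types had higher means in cluster 1 and others lower ones. The mural markers had a mean summed level of 351 CPM in it and of 51.6 to 178.3 CPM over the other fibroblast clusters, pericyte markers had 341 against 97.1 to 273 CPM, and cardiac muscle markers had 158.1 against 21.4 to 57.1 CPM. Smooth muscle markers, at 457 CPM, lay within the 44.7 to 823 CPM of the others. The strain sums of cluster 1, 125.5 to 730 CPM for mural and 162.9 to 849 CPM for pericyte markers, overlapped with those of other fibroblast clusters. Endothelial, immune and platelet markers had their lowest fibroblast means in cluster 1, at 73.6, 2.66 and 23.1 CPM. The part of these transcripts in the Itga8 value was not tested. No other member passed. Itgb5 was lower in cluster 1 in 4 of 4 strains, at 37.02 to 333 CPM against a mean of 303 CPM in the others, a log2 FC of -0.92 (SE 0.54, adjusted p = 0.77 by edgeR). Itga9, Itgb3 and Itga7 also had lower values in 4 of 4 strains without passing (log2 FCs -2.00, -1.90 and -1.47, edgeR adjusted p of 0.81, 0.87 and 0.92).

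No member separated clusters 2 to 5 from each other at the threshold. Comparing each of the 4 with the other 3, edgeR and DESeq2 called 0 of 10 members, and edgeR called 0 of 13870 to 16214 genes (0%), with 630 to 895 genes and, for cluster 2 alone, 1 member at an unadjusted p under 0.05. DESeq2 called 1.55% of its gene tests over these 4 comparisons. The member under 0.05 was Itga1, at 27.1, 37.3, 28.5 and 61.4 CPM in cluster 2 of the 4 strains against 19.8, 4.92, 15.1 and 11.3 CPM in the rest (log2 FC 1.65, SE 0.66, adjusted p = 0.95 by edgeR). Cluster 4 had the highest mean Itga11, 132.5 CPM, and the lowest Itga8, 1.78 CPM.

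By mean level over strains, Itga1 ran from cluster 8 (417 ± 160 CPM, SD over 4 strains) through clusters 6 (156.2 ± 135.8 CPM, n = 3) and 7 (110 ± 76.2 CPM, n = 3) to 38.6 CPM or less in fibroblasts, and each step was within overlapping ranges. Itga7 ran from cluster 8 (768 ± 347 CPM, n = 4) and cluster 7 (525 ± 203 CPM, n = 3), which overlapped, to cluster 6 (111.6 ± 95.8 CPM, n = 3), which did not overlap with cluster 7.
Itga5 stood at 670 ± 197 CPM (SD, n = 3) in cluster 6, clear of cluster 4 (170 ± 83.5 CPM, n = 4), and lowest at 36.7 and 18.9 CPM in clusters 8 and 7. Itga8 stood at 1099 ± 654 CPM (n = 3) in cluster 6, clear of cluster 7 (132.97 ± 114.3 CPM, n = 3), and cluster 1 (77.04 ± 30.8 CPM, n = 4) was clear of cluster 2 (13.5 ± 11.3 CPM, n = 4). Itgb1 ran from 1274 CPM in cluster 6 to 368 CPM in cluster 5 and Itgb5 from 415 CPM in cluster 6 to 134.9 CPM in cluster 7, with every neighbouring pair overlapping.
Itga10 (ENSMUSG00000090210, chr3:96645584-96664519), a cartilage-type collagen receptor chain, was at most 18.5 CPM in every sum but 1 at 44.3 CPM. It shares 1739 exonic bases with Gm42957 on the same strand, a gene with 14369 counts in all against 1335 for Itga10, so its counts are uncertain.

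Levels of different genes compare only per length. On the scale of CPM per kilobase of exon, and as a share of the sum over 18 alpha subunit genes, Itga5 made up 39.5 to 49.8% on average in each fibroblast cluster and Itga11 17.4 to 30.6%. In clusters 7 and 8, Itga7 made up 67.7% ± 18.6 (SD, n = 3) and 61.1% ± 4.8 (SD, n = 4) of the alpha sum and Itga5 2.85% and 5.92%. In cluster 6, Itga5 made up 42.5% ± 15.5 and Itga8 40.2% ± 7.8 (SD, n = 3), and Itga7 3.09%. Cluster 8 had 15.4% ± 6.6 of its alpha sum in Itga1 (SD, n = 4). Within the beta subunits, on the same scale, Itgb1 took 42.9 to 72.9% in the fibroblast clusters and 67.7 to 82.5% in the mural clusters, and Itgb5 most of the rest.

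**Figure D3:**
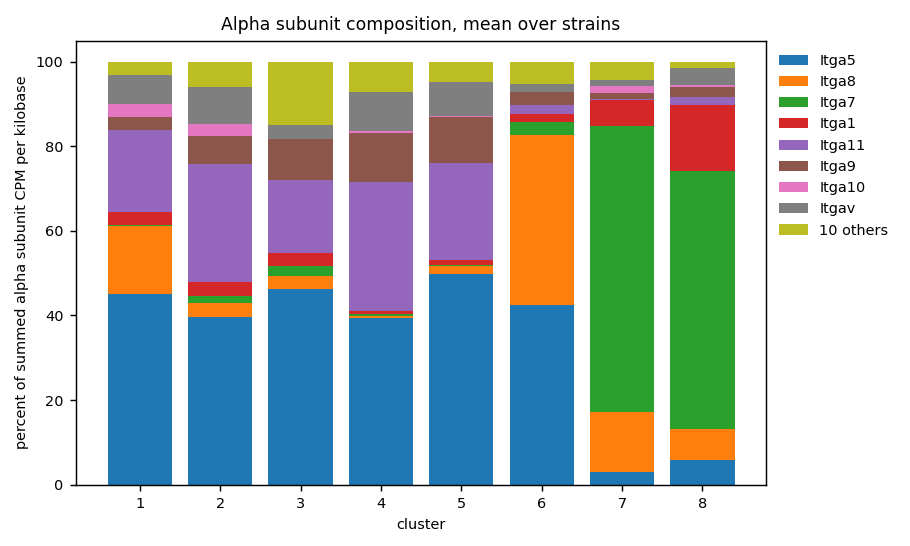
Composition of the alpha subunit transcripts in each cluster, as the mean over strains of each gene's share of the summed CPM per kilobase of 18 alpha genes (bars stack to 100%). Itga5 and Itga11 fill most of clusters 1 to 5, Itga5 and Itga8 most of cluster 6, and Itga7 most of clusters 7 and 8, followed by Itga8 (14.2%) in cluster 7 and Itga1 (15.4%) in cluster 8.

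The share of cells with a count was compared at 1 depth. After thinning each cell to 50000 counts, which left out 2 shallower cells of the mural clusters, Itga8 had a count in 39 of 39 cells of cluster 6 (100%, exact binomial interval 90.97 to 100%), and was in 100% in each of its 3 strains. In clusters 7 and 8 the share went with the strain, at 55.4 and 34.5% in Cspg4dsRED, 63.6 and 33.3% in Acta2GFP, and 0 and 5.93% in PdgfrbGFP. In fibroblasts it was 18.2 to 42.3% over the 4 strains in cluster 1 and 0 to 15.4% in cluster 4, but the shares in cluster 2 of Cspg4dsRED (25%) and Acta2GFP (18.4%) and in cluster 3 of Acta2GFP (35.7%) lay within the range of cluster 1. For Itga7, clusters 7 and 8 of the same strain were close, with shares of 44.4 and 42.4% in PdgfrbGFP, 79.7 and 86.2% in Cspg4dsRED, and 84.8 and 86.7% in Acta2GFP. Fibroblasts, the class where the gene was low, had a count in 6.26% (4.79 to 8.02%), from 2.94% in C57BL6 to 19.2% in Cspg4dsRED. Over all mural cells the thinned share was 62.4%, and before thinning it was 75.4% of mural cells and 20.4% of fibroblasts, at median depths of 208557 and 300090 counts. Intervals and limits cover counting error at most and leave out the spread between strains. These reads carried no molecular identifiers, so the limits for a count of 0 are approximate.
Itga9 was found in 82.1% of cluster 6 and at most 22.3% of any other cluster, and 33 of the 39 cells of cluster 6 were from Cspg4dsRED. By strain, cluster 6 had 93.9% in Cspg4dsRED, 33.3% in Acta2GFP and 0% in C57BL6. Cluster 4 had 38.5, 45 and 14.96% in the same order, so the ranking did not hold within each strain. Itgb1 was found in 73.3 to 100% of cells in every cluster. The 3 cells of Acta2GFP in cluster 6 all had Itga5 and Itga8 counts (375, 265 and 987 and 391, 496 and 1117 counts), as the 3 of C57BL6 had for Itga8 (231, 38 and 194 counts).

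**Figure D4:**
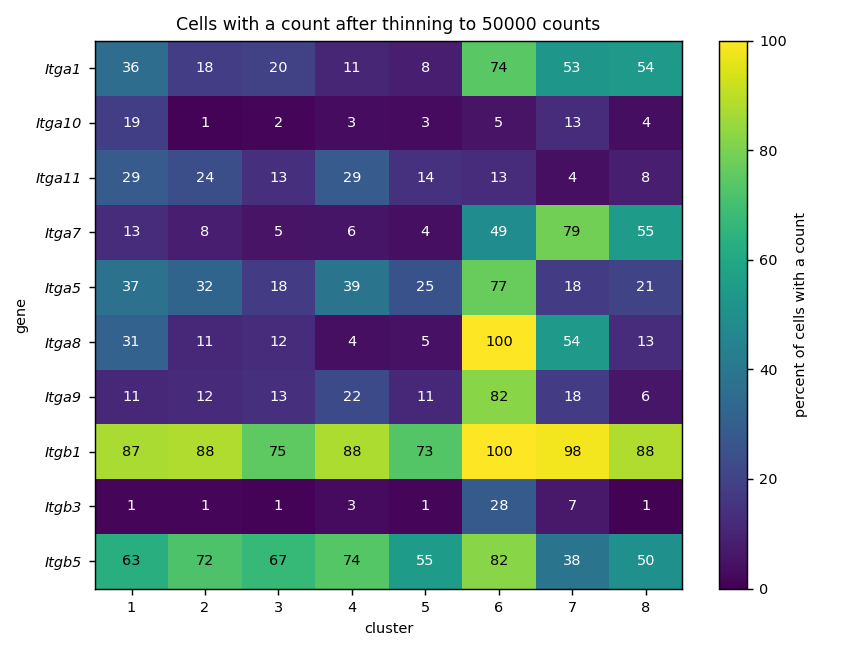
Percent of cells of each cluster with at least 1 count of each member after every cell was thinned to 50000 counts. Itga8 is found in all 39 cells of cluster 6 and in 4.29% of cluster 4, while Itgb1 is found in 73.3 to 100% everywhere.

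Several alpha chains were found in the same cells of cluster 6. Thinned to 50000 counts, Itga5 and Itga8 were both found in 76.9% of cluster 6, 13.7% of cluster 7 and 2.56% of cluster 8, and Itga7 and Itga8 in 48.7%, 40.2% and 10.8%. Before thinning the first pair was in 82.1%, 25.4% and 6.12% and the second in 71.8%, 62.7% and 19.9%, at median depths of 345475, 243989 and 167874 counts. These clusters held unlike mixes of strains, and the shares are a description. The median number of alpha members per cell, counted among the 7, was 5 in cluster 6, 3 in clusters 1 and 7, 2 in clusters 2, 4 and 8, and 1 in clusters 3 and 5. Thinned to one depth it was 4 in cluster 6, 2 in clusters 1, 7 and 8, and 1 in clusters 2 to 5.

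The genes whose pattern over the 27 sums was most like a member's, by Pearson's r of log2(CPM + 1) among 10326 genes with a mean of at least 10 CPM, included a ligand. For Itga8 the first was Npnt, nephronectin, the RGD ligand of alpha8beta1 (r = 0.83), then Tns1, a tensin that links integrins to actin (r = 0.79), and the antisense E030013I19Rik (r = 0.77). Npnt had 728, 739 and 713 CPM in cluster 6 of C57BL6, Cspg4dsRED and Acta2GFP. Of the other sums, the highest was 81.3 CPM, in cluster 1 of PdgfrbGFP. For Itgb1 the first was Vcl, vinculin, the adaptor of adhesion sites (r = 0.89), with Ap3m1 and Lpp next.
For Itga7 they were Gcnt2, Sncg and Olfr558 (r = 0.93, 0.90 and 0.88), for Itga1 Arhgef17, Bcar3 and Notch3, the mural Notch receptor (r = 0.87, 0.81 and 0.78), and for Itga11 Pdpn, podoplanin, with Rab3il1 and Lbp (r = 0.90, 0.90 and 0.85). Itga5 was most like Col1a2, Fhl1 and Lrpap1 (r = 0.79, 0.79 and 0.78), Itgb3 like Plin4, Lgr6 and Xirp1 (r = 0.84, 0.83 and 0.83), Itga9 like Mpdu1, Ipo9 and Lap3 (r = 0.84, 0.82 and 0.82), Itgb5 like Lama4, Nsmce2 and Tcf21 (r = 0.74, 0.73 and 0.69), and Itga10 like Zscan22, Dcaf17 and Cib2 (r = 0.66, 0.64 and 0.63). These values are descriptions, since sums of 1 strain share a genotype and, in the reporter strains, a plate. Between members, r was 0.77 for Itga1 with Itga7 and -0.69 for Itga11 with Itga7.

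**Figure D5:**
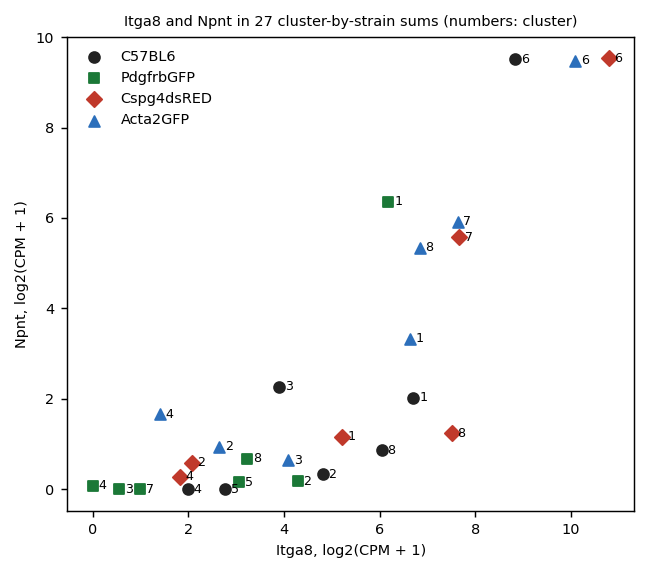
Npnt against Itga8, both as log2(CPM + 1), in 27 sums of counts by cluster and strain (numbers give the cluster, colour and shape the strain). The 3 sums of cluster 6 lie apart at the top right, at 713 to 739 CPM of Npnt, and all others are at 81.3 CPM or less.

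Among the ligands, the collagen and laminin genes that were called were all higher in fibroblasts. Over all genes tested, 3.47% were called higher and 2.45% lower. Of 10 collagen genes tested in fibroblasts against mural cells, 6 were called higher in fibroblasts and 0 lower, with a median log2 FC of 1.46. The largest were Col5a1 (2.59, SE 0.46), Col6a3 (2.45, SE 0.31), Col1a1 (2.35, SE 0.25, which is also in the fibroblast marker list) and Col1a2 (1.85, SE 0.28), with edgeR adjusted p of 0.0090 or less. Of 8 laminin genes tested, 3 were higher and 0 lower (median 1.70), namely Lamb1 (2.44), Lamc1 (1.81) and Lama2 (1.40), the beta1, gamma1 and alpha2 chains that make up merosin.
Of 20 RGD and related ligands tested, 3 were called higher and 3 lower (median 0.13), against 3.47% and 2.45% of all genes. Svep1, a ligand of alpha9beta1, was at 201 and 4.15 CPM in fibroblasts and mural cells (log2 FC 5.60, SE 0.77), Spp1, osteopontin, at 51.4 and 1.04 CPM (5.57, SE 1.29), and Vcam1 at 364 and 50.6 CPM (2.85, SE 0.70). Lower in fibroblasts were Vtn, vitronectin, also in the pericyte marker list, at 15.2 and 2450.2 CPM (-7.36, SE 1.02), Ccn3 (-3.65, SE 0.94) and Mfge8, a ligand of alphaV integrins (-1.92, SE 0.25), with edgeR adjusted p from 0.0016 to 0.049 over these 6. Over the alternatives, Col5a1 lost the call in 2 and Lama2, Spp1, Vcam1 and Ccn3 in 3 to 7. With the paired block the edgeR adjusted p was 0.057 for Vcam1 and 0.14 for Ccn3.

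Of 25 integrin adaptors and activators tested, 5 were called lower and 0 higher in fibroblasts (median -0.45), where 2.45% of all genes were called lower and 3.47% higher. They included Tns1, at 88.6 CPM in fibroblast and 593 CPM in mural sums on average (log2 FC -2.75, SE 0.48), vinculin (Vcl, 116.5 and 444 CPM, -1.96, SE 0.40), Lims1, a partner of integrin-linked kinase (129.8 and 436 CPM, -1.79, SE 0.41), and Fermt2, kindlin-2 (145.1 and 481 CPM, -1.76, SE 0.40), at edgeR adjusted p of 0.0089 to 0.030. The fifth was Ptk2, focal adhesion kinase, named here after its values were seen. Each of the first 4 was lower in fibroblasts in 4 of 4 strains. Over the alternatives the highest adjusted p of these 4 was 0.055 to 0.144, and with the paired block that of Fermt2 was 0.060.

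In cluster 1 against the other fibroblasts, 2 of 10 collagen and 2 of 8 laminin genes tested were called lower and 0 higher, where 0.773% of all genes were called lower, and 2 genes of each list had a positive log2 FC. The called genes encode chains of collagen IV and laminin, components of basement membranes. Lamc1 was at 84.005 against 745 CPM (log2 FC -3.19, SE 0.57), Col4a1 at 71.9 against 561 CPM (-2.94, SE 0.61) and Col4a2 at 70.4 against 330 CPM (-2.20, SE 0.37), and Lamc3 was also lower (-6.20, SE 1.29). All 4 were lower in cluster 1 in 4 of 4 strains. The adaptor Lims2 was at 4.25 against 173.6 CPM (-5.44, SE 0.64). Of 20 RGD and related ligands tested in this comparison, Thbs1, thrombospondin, was higher (1621 against 162.6 CPM, 3.29, SE 0.42), whereas Svep1 (-6.06, SE 0.77) and Tnxb (-2.97, SE 0.63) were lower, with edgeR adjusted p of 0.0024 to 0.047 over these 8. All but Lims2 lost the call in 1 to 7 alternatives, with Lamc3 in 7 (adjusted p = 0.15 by edgeR with the paired block).
In cluster 8 against cluster 7, 1 gene of each ligand list was called, where 0.0843% of all genes were called higher, each higher in pericytes in 3 of 3 strains: Col6a2 (873 against 19.9 CPM, log2 FC 5.43, SE 0.75), Lama2 (389 against 7.22 CPM, 5.68, SE 0.81) and Postn, periostin (2185 against 90.6 CPM, 4.60, SE 0.78), at edgeR adjusted p of 0.021 to 0.041, and each lost the call in 2 or 3 alternatives. The fibroblast markers given above were higher in cluster 8 too, and their part in these values was not tested. Cluster 6 against clusters 7 and 8 had 0 called in edgeR among 60 adaptor and ligand genes tested. At an unadjusted p under 0.05 there were 6 of 20 RGD and related ligands and 4 of 10 collagen genes. Laminin genes had 1 of 7 and adaptors 0 of 23, where all genes had 5.74%. DESeq2, calling 3.12% of all genes, called 2 of the RGD and related ligands and 0 of the other lists.

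The other 17 integrin subunit genes were mostly low. In each of the first 4 comparisons 4 to 6 of them passed the filter, and edgeR and DESeq2 called 0, with 0 at an unadjusted p under 0.05. Comparing each of clusters 2 to 5 with the other 3, 6 to 12 passed and edgeR called 0. At an unadjusted p under 0.05 there was 1 for cluster 4, Itga4, and 1 for cluster 5, Itgae, which DESeq2 called, both named after their values were seen. Itgae was at 0 CPM in both sums of cluster 5 and at most 13.3 CPM in any sum of clusters 2 to 4. Itgav, the alphaV chain that pairs with beta3 and beta5, had cluster means of 17.6 to 90.4 CPM, and its log2 FC in fibroblasts against mural cells was 0.13 (SE 0.43, adjusted p = 0.94 by edgeR). Itga3 reached 167.1 and 186 CPM in the Cspg4dsRED and Acta2GFP cells of cluster 6, the latter from 1 cell, and 0 CPM in those of C57BL6. Itgb8, whose cluster means were 0.19 to 37.3 CPM, had a log2 FC of 2.59 (SE 1.55, adjusted p = 0.48 by edgeR).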

How the data were processed

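Single cardiac mesenchymal cells were sequenced by Smart-seq2 (50-base single reads). The authors trimmed reads, aligned them to GRCm38 with TopHat2, removed duplicates and deposited raw counts per gene and cell from featureCounts. The submitters' processing notes also name Bowtie, Bowtie2, Subread and bcl2fastq. The strand setting and annotation release are not given in the sources used here. The authors had also filtered cells by quality, so cells in the table are not a random draw.

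From these deposited counts, 92 ERCC spike-in features (1.82% of counts) were left out of library sizes and tests. Counts were summed per strain and cell group (3 cells or more) and tested with edgeR 4.0.16 in R 4.3.3 by the quasi-likelihood F test, with TMM scaling, filterByExpr at a minimum count of 10, and Benjamini-Hochberg adjustment over all genes tested at a threshold of 0.05. Each SE given is the absolute edgeR log2 fold change over the square root of its F statistic. CPM is each gene's sum per 1000000 gene counts of its own sum. The 8 comparisons set fibroblast against mural clusters, cluster 1 against the pool of 2 to 5, 6 against the pool of 7 and 8, and 8 against 7, and then compared each of 2 to 5 with the remaining 3. The scripts were tested on simulated data. DESeq2 1.42.0, its size factors in edgeR, no filter, the strain as a block, leaving out each strain, cells thinned to 50000 counts and at least 10 cells a sum were alternatives, and leaving out the 3 C57BL6 cells of cluster 6 was added after seeing the data. Python 3.11.15, numpy 2.4.6, pandas 2.3.3 and scipy 1.17.1 were also used.

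Since the cells of 1 strain shared a genotype and a sort, and in the reporter strains a plate, its sums are paired by origin. Deviations of same-strain sums from their group means correlated at 0.118 to 0.218 in fibroblasts against mural cells and at 0.0367 to 0.221 in the other comparisons. P-values measure the spread between strains, which holds sort and plate.

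Named genes were the 10 members in each comparison, up to 4 genes per direction and list with an adjusted p under 0.05 and the largest fold change in the first 4 comparisons, and the 3 genes most correlated with each member. Members and lists were chosen with earlier results of these data known. Promoter windows and their coordinates are from RefSeq (GRCm38.p6), and gene coordinates are of the GRCm38 annotation. Of the 25 ligand symbols, 3 older ones (Nov, Ctgf, Cyr61) are in the table under their present names and were counted once.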

Additional observations from a re-analysis of the deposited data

Results flagged for a closer look

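In groups of 4 strain sums, 1 strain stood apart from the other 3 by Dixon's criterion in 6 of 60 groups, where chance gives about 1 in 20 of independent groups. These groups were nested, with cluster 2 inside clusters 1 to 5, so the Itga10 value of the same cells counts in both, and no chance rate for such sums was computed. Itga10 was at 44.3 CPM in cluster 2 of Cspg4dsRED, with 0.303 CPM the next highest and 62.2% of its counts in 1 cell. Over clusters 1 to 5 of the same strain it was at 18.7 CPM, against 2.60 CPM in the next, with 56.9% in 1 cell. Itga11 in cluster 8 was at 90.7 CPM in Acta2GFP and at most 1.49 CPM in the other 3 strains, with 63.3% of the counts in 1 cell. Itga5 in cluster 1 was at 268 CPM in Cspg4dsRED, from 3 cells, against 119.2 CPM in the next strain. Itgb3 in C57BL6 was at 2.37 CPM in cluster 1, all from 1 cell, against 0.189 CPM in the next, and at 2.93 CPM in cluster 2, with 65.8% from 1 cell, against 0.492 CPM in the next. The part of single cells in these values was not tested further.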

How the results depend on the processing

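Of the member fold changes recomputed under alternatives, 309 kept their direction and their side of the threshold, 12 gained and 11 lost the call, and 21 turned direction, none of the last past the threshold in any setting. The count of called members in fibroblasts against mural cells was 5 with DESeq2 (3 as reported), 2 with the strain as a paired block and 2 to 3 with a strain left out, where 13.2%, 4.81% and 2.66 to 3.91% of genes were called. In cluster 1 against clusters 2 to 5 it was 0 without the filter, with the block and with thinned cells, and 0 to 1 with a strain left out (1 as reported), where 0.53%, 0.742%, 1.87% and 0.201 to 0.748% of genes were called. In cluster 6 against clusters 7 and 8 it was 1 with DESeq2, 2 without the filter, 3 with the block and 0 to 2 with a strain left out (0 as reported), where 3.12%, 0.418%, 0.883% and 0 to 0.495% of genes were called. The block changed no other member's call, and among the named list genes it ended those of Fermt2, Vcam1, Ccn3 and Lamc3. The cause of these shifts was not tested.

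Direction turned for log2 values near 0 or with wide errors. In fibroblasts against mural cells, Itga10 was 0.21 with the block and -1.65 to 0.68 with a strain left out, Itga5 -0.26 to 0.72 with a strain left out, and Itgb5 -0.07 with DESeq2's size factors, -0.07 with DESeq2, -0.0019 with the block and -0.24 to 0.12 with a strain left out. In cluster 1, Itga5 was -0.03 without the filter, -0.12 with thinned cells, -0.25 with sums of 10 cells or more and -0.25 to 0.41 with a strain left out. In cluster 6, leaving out a strain gave -1.21 to 0.04 for Itga1, -3.85 to 4.54 for Itga11 and -0.33 to 3.47 for Itga9. In cluster 8 against 7, Itga5 was -0.03 with 10 cells or more and -0.03 to 1.95 with a strain left out, Itga8 0.41 with the block, Itga9 -0.36 to 3.00 with a strain left out, and Itgb1 -0.13 with DESeq2's size factors and with DESeq2. Sums of 10 cells or more for cluster 6, and leaving out a strain for cluster 5, were not run because 1 strain would remain. Low totals limit what the smallest sums can show, with 810367 counts in the Cspg4dsRED sum of cluster 1 and 1020801 in the C57BL6 sum of cluster 6.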
